A study of Mus musculus with 32 samples.

Results

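The comparison set 4 control arrays of spinal cord against 4 control arrays of cerebrum, chosen by the condition named in the sample labels, out of 32 arrays in the whole series. It asked how the tissues differed before photothrombosis, an injury in which light clots vessels that hold a photosensitive dye, and so from which baseline each injury model started. Each tissue also had 4 arrays at day 1, day 3 and day 7 after the injury. All groups came from male wild-type C57BL/6J mice of 6 to 12 weeks and 20 to 25 g, and RNA was extracted from frozen tissue with TRIzol, amplified from 10 ng and labelled with biotin. The control groups carry no allele or agent in the labels, which do not say whether they had an operation, which segment or area was taken, or whether each array is a separate animal. The p-values therefore measure the spread between these samples, which may be partly technical. The cerebral control arrays carry lower running numbers in their titles than the spinal control arrays, so if the numbers mark an order of processing, that order and tissue cannot be told apart.

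The cerebrum holds the cortex and, where they were dissected with it, the striatum, hippocampus and diencephalon, whose output neurons mostly use glutamate. The spinal cord holds motor neurons, sensory relay neurons and local inhibitory neurons that use glycine beside GABA, enclosed in thick tracts of myelinated axons. Position along the body axis is encoded by Hox genes, which are read out in the hindbrain and cord but not in the forebrain. The deposited values are centred for each probe, so a value says how far an array lies from that probe's middle, and genes cannot be compared by level. In such bulk tissue, fewer cells of a type and less RNA per cell cannot be told apart.

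Of 19505 genes with a symbol, 6778 (34.8%) were called at a Benjamini-Hochberg adjusted p under 0.05 in limma, 3352 higher (17.2%) and 3426 lower (17.6%) in the spinal controls. Most differences were small, with a median absolute log2 difference of 0.217, and 16368 genes (83.9%) had a 95% interval inside a log2 difference of 1 either way. Over 2-fold, 889 genes were higher (4.56%) and 807 lower (4.14%). Over 4-fold the counts were 198 higher and 200 lower, and over 16-fold they were 14 and 17. The groups did not overlap in 31.5% of genes. The defining genes of each tissue matched the labels: Hox genes such as Hoxc8 were high in all 4 spinal arrays and forebrain transcription factors such as Tbr1 in all 4 cerebral arrays. For each list described below with 0 calls in a direction, limma also gave 0 in that direction at an unadjusted p under 0.05, with the exception of 1 gene in each of 4 lists. These were lower in the skeletal muscle list and the meningeal list, and higher in the choroid plexus list and the joint list of hypothalamus and pituitary.

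**Figure D1:**
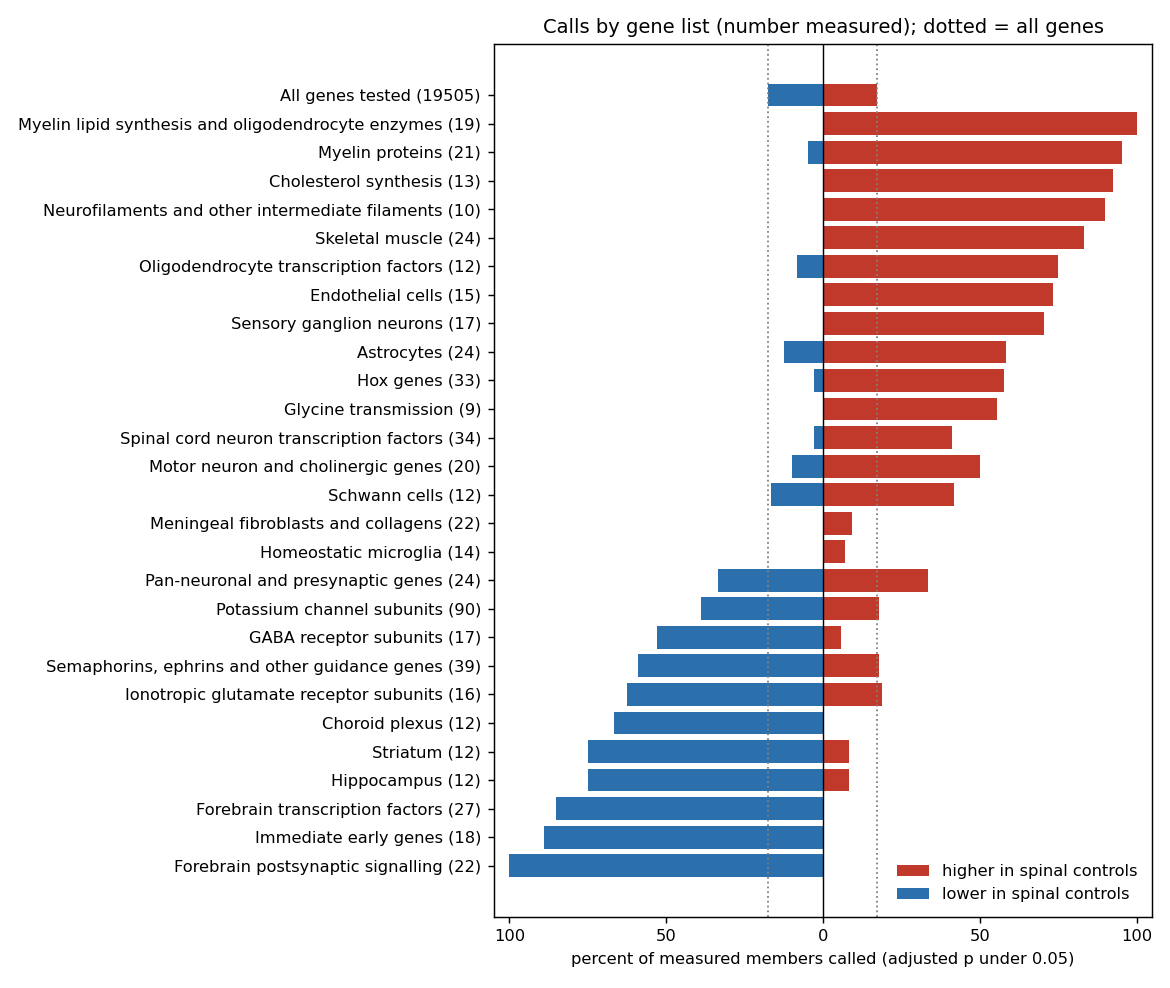
Percent of the measured members of 27 gene lists, and of all genes, that were called higher (right) or lower (left) in the spinal controls at an adjusted p under 0.05, with the number measured in brackets. The dotted lines mark the 17.2% and 17.6% of all genes, and lists of myelin, cholesterol synthesis and filaments lie to the right while forebrain and immediate early lists lie to the left.

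Some arrays stood apart within their group. Across genes, the spinal controls correlated with each other at r = 0.481 to 0.762, and the cerebral controls at r = 0.703 to 0.818, as a description with no test. Spinal controls 2 and 4 read high for genes of sensory ganglia, the clusters of sensory neurons beside the cord, whose list mean was 0.14, 2.90, 0.14 and 2.33 in spinal controls 1 to 4, against -0.33, -0.39, -0.71 and -0.56 in cerebral controls 1 to 4. Skeletal muscle genes averaged 2.80, 2.21, 0.87 and 0.11 in spinal controls 1 to 4, against -0.20, -0.22, -0.25 and -0.24 in cerebral controls 1 to 4, so spinal controls 1 and 2 were highest. Striatal genes averaged 1.44, 1.12, 0.11 and 0.74 in cerebral controls 1 to 4, with control 3 lowest, and the hypothalamic peptide gene Pmch read 6.62, 6.75, 0.16 and 0.015. Many results that touch these genes, though not all, are given with and without the arrays concerned. That choice was made after seeing the data for spinal controls 1 and 3 only. Where these genes move with another result, their part in it was not tested. The spread behind each test was estimated over all 32 arrays, injured ones included. With the spread from the 8 control arrays alone, 5963 genes (30.6%) were called. Of the genes named here, 14 were then not called, at adjusted p = 0.054 to 0.1, namely Barhl2, Chrna5, Egr4, Gabrq, Htr7, Igf1, Klk8, Mrgprd, P2rx3, Pmch, Scn10a, Scn11a, Scn7a and Tcf7l2. Gja1 and Gpr17 were then called, at adjusted p = 0.00806 and 0.0122.

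**Figure D2:**
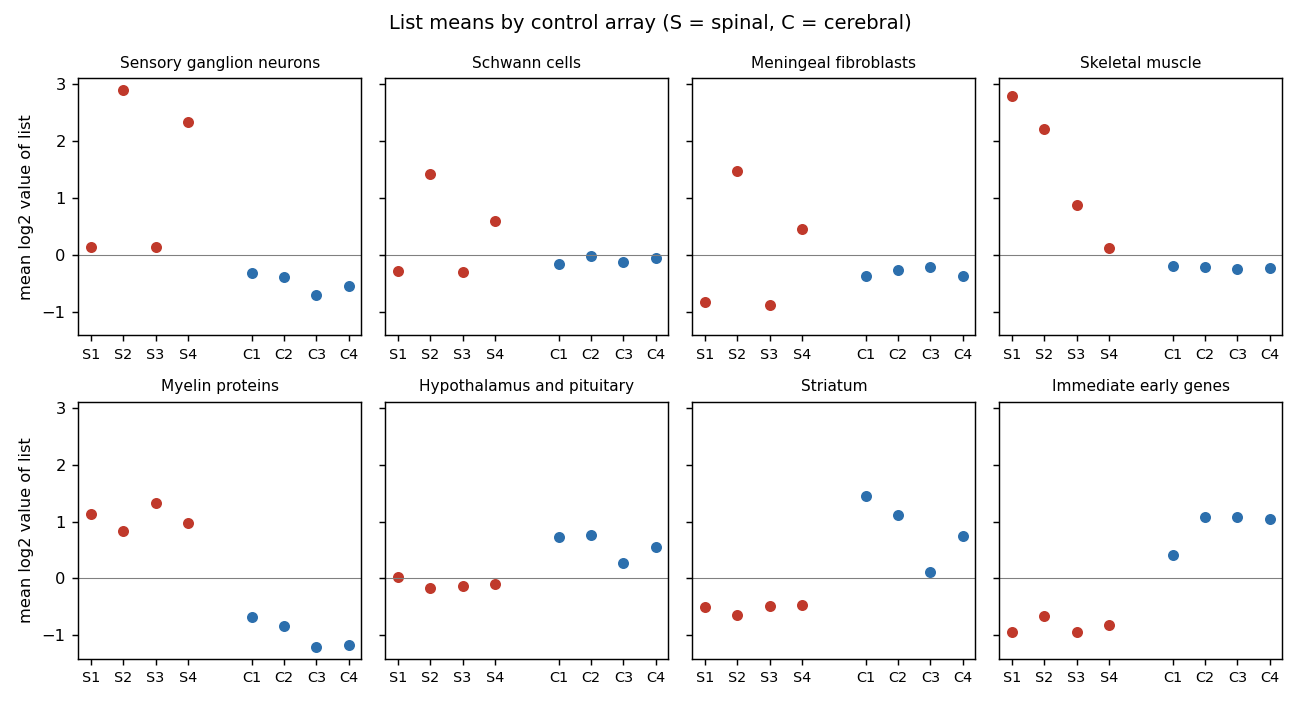
Mean log2 value (vertical axis, centred per probe) of 8 gene lists in spinal controls 1 to 4 (S1 to S4) and cerebral controls 1 to 4 (C1 to C4), each point an array. Sensory ganglion, Schwann cell and meningeal genes are highest in S2 and S4, muscle genes in S1 and S2, while myelin proteins are high in all 4 spinal arrays.

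Hox genes ranked among the largest differences. Of 33 measured, 19 were higher, 1 was lower and 13 were not called, with a median log2 difference of 1.35 against -0.018 for all genes. Hoxc8 read 2.91, 2.94, 3.69 and 3.11 in the spinal controls, against -2.55, -2.56, -2.77 and -2.64 in the cerebral controls. That is 55.4-fold higher in the spinal controls (log2 5.79 ± 0.24, SE, n = 4 each, adjusted p = 1.82e-18), and the groups lay far apart. Hoxb9 read 3.57, 2.90, 3.93 and 3.06 in the spinal controls, against -2.01, -2.04, -2.58 and -2.16 in the cerebral controls, a difference of 5.56 ± 0.22.

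The differences followed the paralogue groups, which are numbered from head to tail. In groups 1 to 3, 3 of 6 genes were higher, with a median of 0.86. Hoxb3 stood at 1.65, Hoxa2 at 1.38 and Hoxa3 at 1.35, whereas Hoxb1 at -0.002 was not called. In groups 4 to 9, 14 of 15 were higher, with a median of 2.22, among them Hoxc6 at 3.46, Hoxa5 at 3.04 and Hoxb6 at 3.02. The exception was Hoxc9 at 0.30, which read 0.67, -0.17, 0.21 and -0.39 in the spinal controls, against -0.18, -0.55, 0.019 and -0.19 in the cerebral controls, so that the groups overlapped. Its sister genes Hoxb9 and Hoxd9 differed by 5.56 and 1.48. In group 10, Hoxc10 at 2.07 and Hoxa10 at 1.03 were higher, and Hoxd10 at 0.13 was not called. Hoxa10 read 1.79, 0.20, 0.64 and 0.46 in the spinal controls, so array 1 was highest, and its difference was 0.69 to 1.22 with each control array left out in turn. In groups 11 to 13, which pattern the tail end, 0 of 9 were higher in limma, and also 0 at an unadjusted p under 0.05. The median there was -0.07, and Hoxd13 at -0.41 was lower, with overlapping groups. Hoxd3os1, a transcript antisense to the Hoxd3 locus by its name, was higher by 4.09 ± 0.26. Whether the array probes separate it from Hox genes of the same cluster was not tested.

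**Figure D3:**
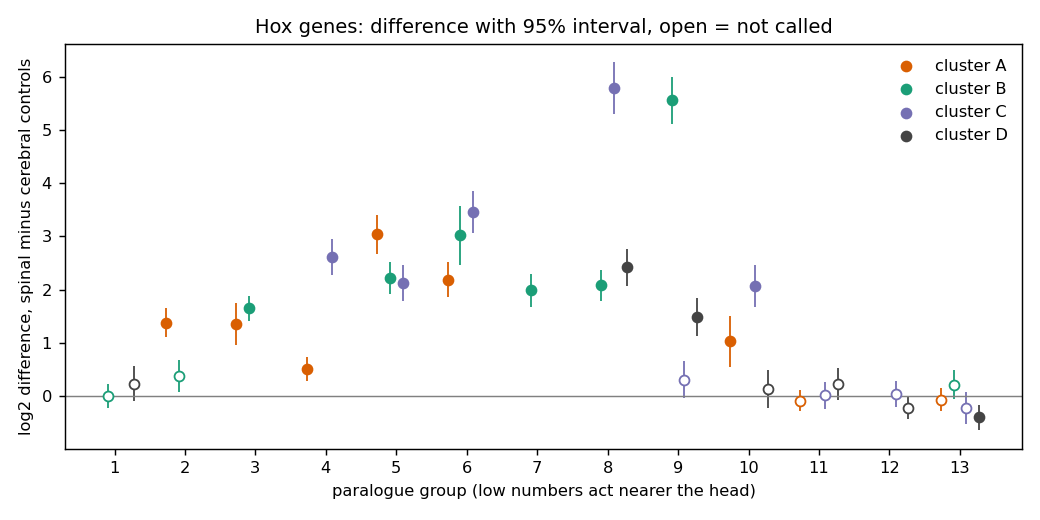
Log2 difference, spinal minus cerebral controls, with its 95% interval for 33 Hox genes, by paralogue group (horizontal axis) and cluster (colour). Filled points are called at an adjusted p under 0.05 and open points are not. Groups 4 to 9 have a median of 2.22 and groups 11 to 13 a median of -0.07.

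Transcription factors that keep regional identity split the same way. Of 27 measured forebrain factors, 23 were lower in the spinal controls and 0 higher, and the 4 not called were Isl1, Cux1, Sp9 and Nkx2-1. Tbr1, a factor of deep cortical projection neurons, read -1.82, -2.09, -2.27 and -1.59 in the spinal controls, against 2.61, 2.34, 2.83 and 2.87 in the cerebral controls, which is 24.3-fold lower in the spinal controls (log2 -4.60 ± 0.15, adjusted p = 5.08e-21). Mef2c, an activity-regulated factor of cortical neurons, differed by -4.65. Lhx2 and Emx2, selectors of the cortical field, differed by -3.86 and -2.17. Neurod6 of excitatory neurons stood at -3.56, and Bcl11b and Fezf2, which specify corticospinal neurons, at -3.28 and -2.91. All of these were below every cerebral array in all 4 spinal arrays.

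Factors of spinal neurons were less uniform. Of 34 measured, 14 were higher, 1 lower and 19 not called, with a median of 0.23. Ebf3, which acts in maturing spinal neurons, read 2.07, 1.81, 2.15 and 2.12 in the spinal controls, against -2.64, -2.24, -4.05 and -3.61 in the cerebral controls, a difference of 5.17 ± 0.28 (36.1-fold). Its relatives Ebf1 and Ebf2 differed by 2.92 and 1.80. Pax2 and Pax8, factors of dorsal inhibitory neurons, differed by 2.91 and 1.97, and Lhx5 by 1.21. Factors known mainly from the embryonic cord were not called, among them Lbx1 at 0.11, En1 at -0.068 and Tlx3 at -0.21. The lower call was Barhl2 at -0.30, which kept its call in 3 of the 8 fits that leave out a control array. Pou4f1, a sensory neuron factor, read 0.51, 4.26, 1.03 and 3.89 in the spinal controls, with arrays 2 and 4 highest. Its difference was 3.27 ± 0.71 over all arrays and 1.62 with spinal controls 1 and 3 only (adjusted p = 0.0981).

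Genes of glycine transmission were higher in the spinal controls or not called. Glra1, the adult alpha subunit of the glycine receptor, read 1.94, 1.49, 2.13 and 1.63 in the spinal controls, against -4.70, -3.61, -5.51 and -5.14 in the cerebral controls. Slc6a5, the transporter that refills glycinergic terminals, read 3.00, 2.32, 2.72 and 2.45 in the spinal controls, against -3.58, -3.62, -3.56 and -3.77 in the cerebral controls. They were 92.8-fold and 76.3-fold higher in the spinal controls (adjusted p = 3.8e-18 and 1.23e-20). Slc6a9, the glial glycine transporter, read 1.37, 1.03, 1.65 and 1.36 in the spinal controls, against -1.07, -0.82, -1.68 and -1.28 in the cerebral controls, a difference of 2.56 ± 0.20. The receptor's beta subunit Glrb and the subunit Glra4 were higher by 0.68 and 0.46. Of the 9 genes, 5 were higher, 0 lower and 4 not called. The uncalled genes were Glra3 at 0.36, the fetal subunit Glra2 at -0.13, the scaffold gephyrin (Gphn) at 0.026 and Slc32a1 at 0.028. Slc32a1 loads both glycine and GABA into vesicles, and its 95% interval was -0.21 to 0.27.

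Gad1 and Gad2, which make GABA, were lower in the spinal controls, while their list had no shared direction. Of 7 measured genes of GABA synthesis and transport, 2 were higher, 2 lower and 3 not called, with a median of 0.20. Gad1, the main GABA-synthesising enzyme, read -0.31, -0.97, -0.49 and -0.81 in the spinal controls, against 1.23, 1.02, 0.70 and 0.56 in the cerebral controls, a difference of -1.52 ± 0.25. Gad2, its synaptic partner, differed by -0.88 ± 0.19, with overlapping groups. With cerebral controls 3 and 4 only, which had the lower striatal values, Gad2 stood at -0.45 (adjusted p = 0.0944). The glial GABA transporter Slc6a11 was higher, at 1.05, or 0.63 with cerebral controls 1 and 2 only (adjusted p = 0.0543). Of 17 GABA receptor subunits, 9 were lower, 1 was higher and 7 were not called. Gabrb2 of the common synaptic receptor read -2.57, -2.89, -2.20 and -2.39 in the spinal controls, against 1.46, 1.50, 1.46 and 1.48 in the cerebral controls, which is 15.9-fold lower in the spinal controls. Gabra4, Gabra3 and the metabotropic subunit Gabbr2 differed by -1.85, -1.17 and -1.44. The higher subunit was Gabrq at 1.22. It read 0.62, -0.035, -1.99 and -1.67 in the cerebral controls, and with cerebral controls 1 and 2 only its difference was 0.16 (adjusted p = 0.663).

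**Figure D4:**
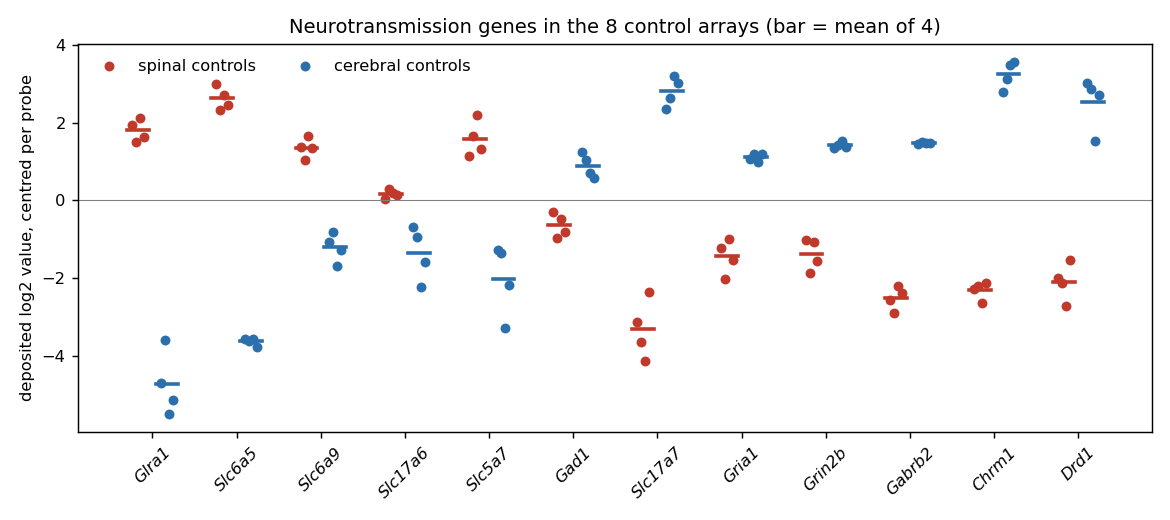
Deposited log2 values (vertical axis, centred per probe) of 12 neurotransmission genes in the 4 spinal controls (left of each pair) and the 4 cerebral controls (right), each point an array and each bar the mean of 4. No pair overlaps, and Glra1, Slc6a5, Slc6a9, Slc17a6 and Slc5a7 are higher in the spinal controls while the other 7 are lower.

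The vesicular glutamate transporters differed in opposite directions. Slc17a7, the transporter of cortical and hippocampal terminals, read -3.15, -3.64, -4.14 and -2.35 in the spinal controls, against 2.36, 2.63, 3.21 and 3.01 in the cerebral controls. It was 69.5-fold lower in the spinal controls (log2 -6.12 ± 0.31, adjusted p = 2.87e-16). Slc17a6, the transporter of thalamic, brainstem and spinal neurons, read 0.028, 0.28, 0.19 and 0.14 in the spinal controls, against -0.69, -0.96, -2.23 and -1.60 in the cerebral controls. It was 2.88-fold higher (log2 1.53 ± 0.21, adjusted p = 4.16e-07), with the cerebral arrays spread more widely than the spinal ones. Slc17a8 was lower, at -0.59. The uptake transporters Slc1a1 of neurons and Slc1a3 of astrocytes were lower, at -2.01 and -1.84. Slc1a2, the main astrocyte transporter, differed by -0.42, and by -0.25 with spinal controls 1 and 3 only (adjusted p = 0.176).

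Among 16 ionotropic glutamate receptor subunits, 10 were lower, 3 higher and 3 not called, with a median of -0.93. The AMPA receptor subunits Gria1, Gria2 and Gria3 differed by -2.55, -2.63 and -2.44, whereas Gria4 stood at 0.24 and was not called. Gria2, which makes the receptor tight to calcium, read -0.76, -1.76, -0.81 and -1.03 in the spinal controls, against 1.35, 1.47, 1.78 and 1.54 in the cerebral controls. Of the NMDA receptor subunits, Grin2a and Grin2b differed by -2.44 and -2.80, and Grin2d and the motor neuron subunit Grin3b by 0.90 and 0.71. The other higher subunit was Grik1, a kainate receptor subunit of sensory neurons, which read 0.014, 2.15, 0.33 and 1.63 in the spinal controls, with arrays 2 and 4 highest. With spinal controls 1 and 3 only it stood at 0.25 (adjusted p = 0.741), against 1.11 over all arrays. Of 6 metabotropic receptors, Grm2, Grm3 and Grm5 were lower, at -3.75, -1.58 and -1.41, and 0 were higher.

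The postsynaptic machinery of forebrain neurons was lower. All 22 measured genes of the list were lower in the spinal controls, with a median of -2.31, and the background for lower calls was 17.6%. Ddn (dendrin), a dendritic protein of forebrain neurons, read -3.01, -2.78, -3.80 and -2.78 in the spinal controls, against 2.95, 3.30, 3.55 and 3.37 in the cerebral controls. It was the gene with the lowest difference of all, 83.7-fold lower (adjusted p = 1.45e-21). Itpka, an inositol kinase of dendritic spines, differed by -5.20 ± 0.16, Nrgn, which buffers calmodulin, by -4.61 ± 0.15, and Camk2a, the kinase of synaptic plasticity, by -4.06 ± 0.19. Rasgrp1, an activator of Ras, read -3.43, -1.43, -4.52 and -1.93 in the spinal controls, a wide spread, and differed by -4.56 ± 0.51, with every spinal array below every cerebral one. Kalrn, which shapes spines, Hpca, a neuronal calcium sensor, and Ptk2b, a calcium-responsive kinase, differed by -4.40, -4.35 and -4.34. Pde1a, a calmodulin-dependent phosphodiesterase, stood at -4.15 and Arpp21, a phosphoprotein of cortex and striatum, at -4.08. The smallest difference in the list was that of Dlg4 (PSD-95), the scaffold of excitatory synapses in general, at -0.99. Mlip, a lamin-binding protein, read -3.22, -0.65, -3.08 and -1.78 in the spinal controls, against 1.92, 2.02, 2.34 and 2.29 in the cerebral controls, a difference of -4.32 ± 0.37.

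Several cholinergic genes of motor neurons were higher. Slc5a7, which takes up choline, read 1.13, 1.64, 2.20 and 1.33 in the spinal controls, against -1.29, -1.36, -3.29 and -2.19 in the cerebral controls, a difference of 3.61 ± 0.31. Slc18a3, which loads acetylcholine into vesicles, Chat, which makes it, and Ache, which degrades it, were higher by 2.65, 1.35 and 1.19. Chodl, a marker of fast motor neurons, read 2.60, 2.81, 2.98 and 2.25 in the spinal controls, against -0.93, -0.82, -1.06 and -0.97 in the cerebral controls, a difference of 3.60 ± 0.23. In the list of 20, 10 were higher, 2 lower and 8 not called, with a median of 0.67. The list mean was 0.37, 1.08, 0.41 and 0.82 in spinal controls 1 to 4, so arrays 2 and 4 were highest. With spinal controls 1 and 3 only, 7 were higher and 1 lower, with a median of 0.21. The lower ones over all arrays were the nicotinic receptor subunits Chrna5 at -0.58 and Chrna7 at -0.45. Chrna5 was not called without cerebral control 3. Prph, a filament protein of motor and peripheral neurons, read 1.30, 5.42, 1.15 and 4.01 in the spinal controls, against -1.41, -1.68, -2.16 and -2.20 in the cerebral controls. Its difference was 4.83 ± 0.65 over all arrays and 3.09 with spinal controls 1 and 3 only (adjusted p = 9.97e-05), so it was higher in the arrays with low ganglion values as well. Calcb, a calcitonin-related peptide gene, stood at 2.60, and at 1.12 with those arrays (adjusted p = 0.0587).

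Muscarinic receptors differed in direction. Chrm1, the receptor of cortex and hippocampus, read -2.28, -2.21, -2.65 and -2.13 in the spinal controls, against 2.78, 3.13, 3.48 and 3.57 in the cerebral controls, which is 47.2-fold lower in the spinal controls (adjusted p = 1.45e-21). Chrm4 and Chrm3 were lower, at -2.68 and -1.91, and Chrm2, which is found on motor neurons and cholinergic terminals, was higher by 0.68. Of 21 dopamine, serotonin and adrenergic receptors, 6 were lower and 1 was higher. Drd1, the dopamine receptor of striatal output neurons, read -2.01, -2.12, -2.71 and -1.53 in the spinal controls, against 3.02, 2.86, 1.53 and 2.72 in the cerebral controls, with cerebral control 3 lowest of its group. Drd2 differed by -1.39, and by -0.75 with cerebral controls 3 and 4 only (adjusted p = 0.0594). The serotonin receptors Htr2a and Htr1b were lower, at -1.50 and -1.37. The higher receptor, Htr7 at 0.40, lost its call without spinal control 3 and without cerebral control 2 or 3.

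Neuropeptide genes went both ways, with 10 higher, 7 lower and 15 not called of 32, and a median of 0.024. Nmu (neuromedin U) read 2.20, 1.87, 3.26 and 2.32 in the spinal controls, against -1.02, -1.03, -0.60 and -0.75 in the cerebral controls, a difference of 3.26 ± 0.30. Tac2 (neurokinin B) read 2.23, 1.32, 2.28 and 1.55 in the spinal controls, against -0.25, -0.69, -1.58 and -1.22 in the cerebral controls, a difference of 2.78 ± 0.32. Gal (galanin) was higher by 1.85, and Cartpt by 0.99. The interneuron peptides of the cortex were lower, with Cck at -2.68, Npy at -2.15, Vip at -1.65 and Sst at -0.82. Sst stood at -0.63 with spinal controls 1 and 3 only (adjusted p = 0.0796). Penk at 0.036 and Tac1 at 0.18, which both tissues use, were not called. Tac1 read -0.57, 1.78, -0.036 and 0.91 in the spinal controls, with arrays 2 and 4 highest.

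General neuronal genes did not share a direction. Of 24 measured, 8 were higher and 8 lower, with a median of 0.069, and Map2 at -0.023, Eno2 at -0.041 and Uchl1 at 0.082 were not called. Partner isoforms of the release machinery went opposite ways. Vamp1 read 1.29, 0.81, 0.99 and 0.83 in the spinal controls, against -1.61, -1.31, -1.98 and -2.03 in the cerebral controls, a difference of 2.72 ± 0.16, whereas Vamp2 differed by -0.49. Syt2, the calcium sensor of fast synapses, was higher by 2.41, and Syt1, the sensor of forebrain synapses, lower, at -1.99. Cplx1 stood at 0.63 and Cplx2 at -2.02, and Stx1a, a fusion protein, at -2.83. The nuclear marker Rbfox3 (NeuN) was lower, at -0.84. Sncg (gamma-synuclein) read 1.25, 3.92, 1.07 and 3.53 in the spinal controls, against -1.86, -1.57, -2.89 and -2.30 in the cerebral controls, with spinal arrays 2 and 4 highest. Its difference was 4.60 ± 0.50, or 3.32 with spinal controls 1 and 3 only (adjusted p = 2.34e-06).

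Filament genes of large axons were higher. In the list of 10 intermediate filaments, 9 were higher and 0 lower, with Ina at 0.054 not called. With spinal controls 1 and 3 only 7 of them were higher, and with spinal controls 3 and 4 only 6. Nefm, the middle neurofilament subunit, read 1.41, 1.27, 1.52 and 1.45 in the spinal controls, against -1.25, -1.42, -1.37 and -1.60 in the cerebral controls, which is 7.08-fold higher in the spinal controls. Nefh and Nefl, the heavy and light subunits, were higher by 2.69 ± 0.12 and 1.36 ± 0.12. Calcium-binding proteins differed by type, with Calb2 (calretinin) at 2.93, Pvalb (parvalbumin) at 1.08 and Calb1 (calbindin) at -1.82. Pvalb is also a gene of fast muscle.

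Among 10 voltage-gated sodium channel subunits, 4 were higher and 4 lower, or 1 and 4 with the spread from the 8 control arrays alone. The lower ones were Scn3b at -2.09, Scn2a at -1.82, Scn2b at -1.57 and Scn3a at -0.95. Scn1a at 0.38 and Scn8a at 0.024, the adult nodal channel, were not called. The auxiliary subunit Scn4b was higher, at 1.15. The other 3 higher subunits, Scn10a, Scn11a and Scn7a, belong to the peripheral nervous system and read high in spinal controls 2 and 4 only. Scn10a read -0.18, 7.38, -0.22 and 6.19 in the spinal controls, against -0.20, 0.21, -0.42 and -0.13 in the cerebral controls. With spinal controls 1 and 3 only, Scn10a stood at -0.065, Scn11a at 0.16 and Scn7a at 0.23 (adjusted p = 0.977, 0.937 and 0.899), against 3.43, 3.18 and 2.86 over all arrays. Of 90 potassium channel genes, 35 were lower and 16 higher, with a median of -0.18. Kcnv1, Kcnf1, Kcnj4 and Kcnq5 were lower, at -3.13, -2.98, -2.94 and -2.46. Kcnh2, the ERG channel, read 0.87, 0.49, 0.77 and 0.63 in the spinal controls, against -1.14, -1.33, -1.78 and -1.51 in the cerebral controls, a difference of 2.13 ± 0.13, and Kcna1, a channel beside the node of Ranvier, was higher by 1.13.

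Immediate early genes, which are switched on within minutes by synaptic activity or handling, were lower in the spinal controls. Of 18 measured, 16 were lower, 0 higher, and Atf3 at -0.019 and Ier2 at -0.061 were not called. Egr1 read -1.78, -1.88, -1.29 and -1.42 in the spinal controls, against 0.82, 1.86, 2.21 and 2.35 in the cerebral controls, a difference of -3.40 ± 0.30. Cerebral control 1 was the lowest of its group for Egr1, and the list mean was -0.94, -0.67, -0.94 and -0.83 in spinal controls 1 to 4, against 0.40, 1.08, 1.07 and 1.04 in cerebral controls 1 to 4. The nuclear receptors Nr4a2 and Nr4a1 differed by -3.24 ± 0.21 and -2.99 ± 0.25, and the synaptic effector Arc by -1.74 ± 0.23. Junb read -1.67, -1.11, -1.75 and -1.74 in the spinal controls, against -0.45, 0.52, 0.65 and 0.32 in the cerebral controls, a difference of -1.83 ± 0.23. Fos stood at -0.62 ± 0.16, and at -0.48 with spinal controls 3 and 4 only (adjusted p = 0.0653). Homer1, a scaffold with an activity-induced short form, differed by -3.08 ± 0.16, and Bdnf, a growth factor induced by activity, by -2.24 ± 0.45. Egr2, which activity induces in the forebrain and which Schwann cells need for myelin, read -1.30, 1.06, -1.42 and -0.0047 in the spinal controls, against -0.35, 1.71, 1.78 and 1.77 in the cerebral controls, so that the groups overlapped.

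Many such genes are induced through a cAMP response element. The motif TGACGTNA, searched on both strands from 250 bases before to 50 after each start, was present in 963 of 32851 promoters (2.93%) and in 5 of 25 promoters of the immediate early list (20.0%), at Atf3, Bdnf, Dusp1, Egr4 and Homer1. The windows below show 3 of them from RefSeq on GRCm38.p6, read 5′ to 3′ on the gene's strand with the motif in capitals, so that the letters can be set beside the values. Dusp1, an early phosphatase, differed by -1.81 ± 0.39, Homer1 by -3.08 ± 0.16, and Egr4 by -0.35 ± 0.12, a call that was lost without spinal control 2, 3 or 4 or cerebral control 3.
Dusp1, chr17:26508572-26508651, minus strand: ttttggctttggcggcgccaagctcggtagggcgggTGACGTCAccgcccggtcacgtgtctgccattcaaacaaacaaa
Homer1, chr13:93303665-93303744, plus strand: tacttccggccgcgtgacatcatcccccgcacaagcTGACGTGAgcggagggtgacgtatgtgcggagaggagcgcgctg
Egr4, chr6:85513658-85513737, minus strand: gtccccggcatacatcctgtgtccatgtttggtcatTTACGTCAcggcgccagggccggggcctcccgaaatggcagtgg
The Egr4 match lies on the opposite strand, and Atf3, which also holds the motif, did not pass the test. A match is a description of the letters and not a measured site.

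Myelin genes were nearly all higher in the spinal controls. Of 21 measured genes of the sheath and of myelinating cells, 20 were higher and 1 was lower, with a median of 1.98. Klk6, a protease of mature oligodendrocytes, read 1.67, 1.92, 2.23 and 1.71 in the spinal controls, against -3.31, -3.56, -5.43 and -4.40 in the cerebral controls, which is 66.6-fold higher in the spinal controls (log2 6.06 ± 0.27, adjusted p = 1.45e-17). The other 5 kallikreins measured stood between -0.51 and 0.14, and Klk8 and Klk9 were lower. The call of Klk8 (adjusted p = 0.0485) held in 2 of the 8 fits that leave out a control array, and that of Klk9 was lost without cerebral control 1. Mbp, a main protein of compact myelin, read 1.27, 1.13, 1.29 and 1.12 in the spinal controls, against -1.08, -1.34, -1.54 and -1.60 in the cerebral controls, a difference of 2.59 ± 0.11. Mag, which faces the axon, was higher by 2.80 ± 0.18, Gjb1, a gap junction protein of oligodendrocytes and Schwann cells, by 3.67 ± 0.25, and Ermn, a cytoskeletal protein of late oligodendrocytes, by 3.38 ± 0.18. The lower gene was Omg at -0.53, which neurons also make, and it lost its call without spinal control 2, cerebral control 1 or cerebral control 4.

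Enzymes that build myelin lipids were higher as well. All 19 measured were higher, with a median of 1.91. Ugt8a, which makes galactosylceramide, read 2.37, 2.38, 2.73 and 2.43 in the spinal controls, against -0.12, -0.53, -1.12 and -0.75 in the cerebral controls, a difference of 3.11 ± 0.32. Fa2h, which hydroxylates its fatty acids, was higher by 2.93 ± 0.27, and Gal3st1, which makes sulfatide, by 1.95 ± 0.23. Enpp6 of newly forming oligodendrocytes, Aspa, which supplies acetate, and Cyp27a1, a sterol hydroxylase, were higher by 3.02 ± 0.24, 2.04 ± 0.36 and 3.45 ± 0.24. Of 12 transcription factors of the lineage, 9 were higher and 1 was lower. Myrf and Sox10, which drive myelin genes, were higher by 1.95 ± 0.15 and 1.81 ± 0.18, and Nkx6-2 and Olig2 by 1.51 ± 0.19 and 1.18 ± 0.18. The lower factor was Tcf7l2, which thalamic neurons also express. It read 2.65, 1.70, -0.47 and 0.99 in the cerebral controls, and with cerebral controls 3 and 4 only its difference was -0.36 (adjusted p = 0.264), against -1.32 over all arrays.

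Genes of oligodendrocyte precursors differed less. Of 12 measured, 5 were higher, 1 was lower and 6 were not called, with a median of 0.25. Cspg4 (NG2), their surface proteoglycan, read -0.07, 0.25, 0.11 and -0.03 in the spinal controls, against 0.017, 0.21, -0.017 and -0.43 in the cerebral controls, so that the groups overlapped. Gpr17 of committed precursors at 0.55 and Sox6 at 0.023 were not called, and Tnr, a matrix protein, was lower, at -0.79.

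Cholesterol, the other main lipid of myelin, is made in the adult nervous system itself. Of 13 genes measured, 12 were higher and 0 lower, with a median of 1.16. Hmgcs1, at the start of the pathway, read 0.80, 0.63, 0.82 and 0.89 in the spinal controls, against -0.59, -0.47, -0.33 and -0.45 in the cerebral controls, a difference of 1.25 ± 0.16. Sqle, which forms squalene epoxide, and Sc5d, a late enzyme, were higher by 1.23 ± 0.18 and 1.55 ± 0.094. Insig1, the feedback regulator, was higher by 1.81 ± 0.20, whereas Srebf2, the factor that activates the pathway, stood at 0.056 with a 95% interval of -0.17 to 0.28. The sterol response element TCACNCCAC, searched as above, was present in 1.24% of all promoters and in 1 of 12 promoters of the list, that of Hmgcs1, shown here with the motif in capitals.
Hmgcs1, chr13:119690179-119690258, plus strand: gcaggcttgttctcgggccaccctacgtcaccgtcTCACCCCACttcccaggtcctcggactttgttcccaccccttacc

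Astrocyte genes were mostly higher, with 14 higher, 3 lower and 7 not called of 24, and a median of 0.64. S100b, a calcium-binding protein of astrocytes and some oligodendrocytes, read 2.42, 2.46, 2.54 and 2.19 in the spinal controls, against -1.24, -1.32, -1.62 and -1.74 in the cerebral controls, which is 14.7-fold higher in the spinal controls. Gfap, the filament of white-matter and reactive astrocytes, read 0.25, -0.19, 0.55 and -0.048 in the spinal controls, against -4.24, -3.56, -3.16 and -3.48 in the cerebral controls, which is 13.5-fold higher. Aqp4, the water channel of their endfeet, and Agt (angiotensinogen), which marks caudal astrocytes, were higher by 2.85 ± 0.36 and 2.96 ± 0.30. Kcnj10, which buffers potassium, stood at 1.41. General astrocyte markers were not called, with Aldh1l1 at 0.23, Aldoc at 0.13 and Gja1 at 0.50. The lower genes were Slc1a3 and Slc1a2, given above, and Chrdl1 of cortical astrocytes at -0.90.

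Calls among microglial identity genes depended on the spread used. Of 14 measured, 1 was higher, 0 lower and 13 not called, with a median of -0.094, and the background was 34.8% called either way. With the spread from the 8 control arrays alone, 4 were higher and 1 lower, beside a background of 30.6%. The groups did not overlap in 5 of them, 4 above and 1 below, beside 31.5% of all genes. P2ry12, which senses nucleotides on resting microglia, read 0.071, -0.42, -0.14 and 0.1 in the spinal controls, against 0.13, -0.028, 0.028 and 0.081 in the cerebral controls, so that the groups overlapped, and its 95% interval was -0.66 to 0.36. Tmem119 and Cx3cr1 stood at -0.088 and 0.11, with intervals of -0.40 to 0.22 and -0.55 to 0.76. The gene called higher over all arrays was Sall1, a microglial factor that other neural cells use too, at 0.90. Of 12 genes of activated microglia, 4 were higher, among them Igf1 at 1.64. Igf1 read -0.36, 3.65, -0.55 and 1.47 in the spinal controls and stood at 0.13 with spinal controls 1 and 3 only (adjusted p = 0.854). Trem2 was not called, at -0.10.

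Calls among immune genes, some of them shared with other cells, differed by list, beside the 17.2% of all genes that were called higher. Of 14 MHC class I and II genes, 5 were higher and 0 lower, or 3 and 0 with spinal controls 1 and 3 only. C4b, a complement component of astrocytes and oligodendrocytes, read -0.066, -0.21, -0.20 and -0.11 in the spinal controls, against -1.80, -1.33, -1.20 and -1.62 in the cerebral controls, a difference of 1.34 ± 0.22, while C1qa of microglia stood at 0.11. In all, 2 of 12 complement genes were higher, or 1 with the spread from the control arrays alone. B2m, the shared chain of MHC class I, read -0.0039, 0.84, -0.20 and 0.0039 in the spinal controls, against -1.27, -1.36, -1.22 and -1.47 in the cerebral controls, a difference of 1.49 ± 0.20. H2-D1 and H2-K1 were higher by 0.95 ± 0.19 and 0.88 ± 0.18, or 0.56 and 0.59 with spinal controls 1 and 3 only. The neutrophil genes S100a8, S100a9 and Ngp were higher by 2.28, 1.77 and 1.57, and S100a8 read 1.47, 2.20, 1.52 and 0.37 in the spinal controls, against -0.95, -1.03, -0.80 and -0.81 in the cerebral controls. Of 21 leukocyte genes, 7 were higher and 1 lower, the lower one being Cd4 at -1.15. Ifitm3 was the highest of 16 interferon-response genes, at 1.32, and 4 of them were higher and 0 lower. With spinal controls 1 and 3 only, 1 interferon-response gene was higher, and 4 leukocyte genes were higher and 1 lower.

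Endothelial genes were higher in 11 of 15 cases and lower in 0, with a median of 0.64. Slc2a1, the glucose carrier of the blood-brain barrier, read 0.63, 0.75, 0.60 and 0.28 in the spinal controls, against -0.65, -0.95, -0.41 and -1.02 in the cerebral controls, a difference of 1.33 ± 0.14. Slc2a3, the neuronal glucose carrier, read -1.38, -1.28, -2.26 and -1.94 in the spinal controls, against 0.31, 0.64, 1.05 and 1.23 in the cerebral controls, a difference of -2.52 ± 0.20, so the carriers went opposite ways. The barrier transporters Abcb1a, Slco1a4 and Mfsd2a were higher by 1.11, 1.12 and 0.84, and the tight junction gene Cldn5 stood at 0.27 and was not called. Pericyte and smooth muscle genes were higher in 3 of 13. With spinal controls 1 and 3 only, the endothelial list had 9 higher and a median of 0.51.

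Genes of tissues that adjoin the cord read high in some spinal arrays. Of 17 sensory ganglion genes, 12 were higher and 0 lower, with a median of 1.47, and several of them are shared with the lists above. With the spread from the 8 control arrays alone, 4 were higher, and 6 had all spinal arrays above all cerebral ones. With spinal controls 1 and 3 only, 3 were higher and the median was 0.16. P2rx3, a pain receptor of sensory neurons, read -0.14, 4.93, -0.035 and 3.66 in the spinal controls, against -0.28, -0.009, -0.59 and -0.40 in the cerebral controls, and Mrgprd, a receptor of skin afferents, read -0.094, 3.80, -0.0071 and 3.41 in the spinal controls, against 0.063, -0.18, -0.076 and -0.10 in the cerebral controls. Their differences over all arrays, 2.42 and 1.85, stood at 0.23 and 0.024 without spinal controls 2 and 4 (adjusted p = 0.869 and 0.977). Ret, a receptor of sensory and motor neurons, was higher by 2.66 ± 0.26, and by 2.07 without those arrays (adjusted p = 1.36e-07). Piezo2, a mechanical channel of touch neurons, stood at 3.87 ± 0.66, and at 1.87 without them (adjusted p = 0.00597).

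Genes of Schwann cells, which myelinate nerve roots, read high in spinal controls 2 and 4 too. Pmp22, a myelin protein of peripheral nerve, read 0.60, 4.45, 0.67 and 3.41 in the spinal controls, against -1.86, -2.17, -2.03 and -2.43 in the cerebral controls. Its difference was 4.40 ± 0.51, or 2.76 with spinal controls 1 and 3 only (adjusted p = 2.03e-07). Cdh19, a cadherin of Schwann cells and oligodendrocytes, was higher by 2.33 ± 0.18. Of 12 genes in the list, 5 were higher and 2 lower, with a median of 0.52, and with the spread from the control arrays alone 3 were higher. The lower ones over all arrays were Egr2 and Mlip, the lamin-binding protein given above, whose use by Schwann cells was not tested. With spinal controls 1 and 3 only, 2 genes of the list were higher, with a median of 0.16. Of 22 meningeal and collagen genes, 2 were higher, or 1 with the spread from the control arrays alone. Ogn, a matrix protein of fibroblasts, read -1.19, 4.50, -1.54 and 2.65 in the spinal controls, against -0.19, -0.028, 0.028 and -0.27 in the cerebral controls. With spinal controls 1 and 3 only the meningeal median was -0.42, with 0 higher and 3 lower, against 0.20 over all arrays.

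Skeletal muscle genes were higher with a wide spread between spinal arrays. Of 24, 20 were higher and 0 lower, with a median of 1.60. Myh4, a fast myosin, read 7.73, 8.04, 4.15 and 0.93 in the spinal controls, against -0.27, -0.067, -0.41 and -0.26 in the cerebral controls, so spinal arrays 1 and 2 were far above arrays 3 and 4, and array 4 was nearest to the cerebral values. Myh8, the perinatal myosin, and Atp2a1, the muscle calcium pump, differed by 4.51 ± 0.72 and 5.25 ± 0.76. With spinal controls 3 and 4 only, Myh4, Myh8 and Atp2a1 stood at 2.79, 2.21 and 3.08 (adjusted p = 0.00243, 0.00125 and 0.000498), and the list had 13 higher, 1 lower and a median of 0.54. Myh7, the slow myosin, was not called, at -0.046. Fabp4, a fatty acid carrier of fat and vessels, read 4.16, 2.84, 1.27 and -0.096 in the spinal controls, in the order of the muscle values.

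Choroid plexus genes, made by the tissue that secretes cerebrospinal fluid, were lower in 8 of 12, with a median of -0.82. Ttr, its main secreted protein, read -2.42, -2.92, -3.84 and -2.41 in the spinal controls, against 3.58, 3.25, 2.41 and 3.26 in the cerebral controls, which is 65.1-fold lower in the spinal controls. Of 12 striatal genes 9 were lower, and of 12 hippocampal genes 9. With cerebral controls 3 and 4 only, 8 striatal genes were lower, and the striatal median was -0.86, against -1.33 over all arrays. The hypothalamic gene Pmch read -0.22, -0.43, -0.26 and -0.015 in the spinal controls, against 6.62, 6.75, 0.16 and 0.015 in the cerebral controls, so cerebral controls 1 and 2 were far above all other control arrays. Its difference was -3.62 ± 1.06 over all arrays, -6.92 with cerebral controls 1 and 2 only and -0.32 with cerebral controls 3 and 4 only (adjusted p = 1.05e-07 and 0.823). The pituitary hormone gene Prl read 0.55, -0.29, -0.0063 and 0.072 in the spinal controls, against 1.77, 1.53, 3.07 and 4.77 in the cerebral controls, with cerebral control 4 highest, and Pomc differed by -1.64 ± 0.24. With cerebral controls 3 and 4 only, 4 of 18 hypothalamic and pituitary genes were lower, against 7 over all arrays. With the spread from the 8 control arrays alone, 4 were lower and 1 was higher.

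Molecules that guide or limit axon growth were mostly lower. Of 39, 23 were lower, 7 higher and 9 not called, with a median of -0.48. Lingo1 and Rtn4r, parts of the receptor for myelin inhibitors of growth, read lower, at -3.58 and -1.92, and Lingo1 read -1.69, -1.42, -1.81 and -1.38 in the spinal controls, against 1.86, 1.83, 2.13 and 2.21 in the cerebral controls. Of their ligands named here, Mag was higher and Omg lower. The call of Omg was lost without spinal control 2, cerebral control 1 or cerebral control 4. The ephrin receptors Epha4 and Epha7 were lower, at -2.50 ± 0.14 and -2.46 ± 0.15, and the ligand Efnb3, which keeps axons from crossing the midline of the cord, was higher by 1.18 ± 0.14. Sema3b was higher by 2.34. Among 16 matrix proteoglycans and their partners, 4 were higher and 3 lower. Hapln2, a link protein at nodes of Ranvier, read 1.05, 0.73, 1.85 and 0.60 in the spinal controls, against -1.32, -0.91, -1.28 and -1.01 in the cerebral controls, a difference of 2.19 ± 0.19. Bcan, Vcan and Acan were higher by 1.06, 0.91 and 0.59, and Ncan and Cspg5 were lower, at -2.20 and -1.42.

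Among neurotrophic genes, 4 of 16 were higher and 3 lower, or 2 and 3 with the spread from the control arrays alone. Of all genes, 17.2% were higher and 17.6% lower. The neurotrophic list mean was -0.32, 0.89, -0.33 and 0.52 in spinal controls 1 to 4, so arrays 2 and 4 were highest. With spinal controls 1 and 3 only, 2 neurotrophic genes were higher and 5 lower. In the retinoic acid pathway, through which Hox genes are switched on in the embryo, 2 of 16 were higher and 2 lower. Aldh1a1, which makes retinoic acid, was higher by 1.79 ± 0.19, and Rxrg, a receptor of striatum, lower, at -1.32 ± 0.22. Glycolytic genes were lower in 9 of 19 cases and higher in 4, with Tpi1 at -1.27. Fads2b, a desaturase-like gene and one of the 15 highest, read 2.63, 2.42, 3.24 and 2.33 in the spinal controls, against -1.79, -1.06, -1.93 and -1.94 in the cerebral controls, a difference of 4.34 ± 0.46. Cytosolic ribosomal proteins, a set expressed by every cell, had 15 higher and 2 lower of 60, with a median of 0.11, and respiratory chain subunits 29 and 16 of 97. Of 1091 olfactory receptors, which neither tissue is known to use widely, 8 were higher and 126 lower, with a median of -0.096. Both shares were under the background, but lower calls outnumbered higher ones. At day 1, 57 were higher and 8 lower, so the direction was not kept, and the cause was not tested. With the spread from the control arrays alone, 67 olfactory receptors were lower, and 17 respiratory chain subunits were higher and 11 lower.

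Of 6 microRNA genes on the array, 3 were called, and their probes measure precursor or host transcripts rather than mature microRNAs. Mir1199 read 0.66, -0.031, 0.031 and 0.18 in the spinal controls, against -0.31, -0.71, -0.38 and -0.32 in the cerebral controls, a difference of 0.64 ± 0.13. Mir7233 read -0.20, 0.14, -0.18 and -0.12 in the spinal controls, against 0.25, 0.50, 0.57 and 1.00 in the cerebral controls, a difference of -0.67 ± 0.13. Mir1a-1hg, the host transcript of a muscle microRNA, was higher by 0.70 ± 0.13. The mature products of both called precursors, from RefSeq on GRCm38.p6, are given with the seed (bases 2 to 8) in capitals, and their seeds differ. Mir1199 lies on chromosome 8 and Mir7233 on chromosome 6.
mmu-miR-1199-5p: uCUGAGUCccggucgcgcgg
mmu-miR-1199-3p: uGCGGCCGgugcucagucggc
mmu-miR-7233-3p: uAUUGUCUgccuuuaggucuac

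The same difference was then taken within each day after injury. No array enters the means of both a day and the controls, but all tests share 1 standard error per gene, estimated over all 32 arrays, so the calls are not independent. At day 1, 7036 genes (36.1%) were called, and 57.9% of the control calls were called in the same direction, which is 55.8% of the day 1 calls, while 129 were called in the opposite one. At day 3, 7359 genes (37.7%) were called, with 63.2% of the control calls in the same direction, or 58.2% of the day 3 calls, and 81 opposite. At day 7, 9178 genes (47.1%) were called, with 60.1% of the control calls in the same direction, or 44.4% of the day 7 calls, and 475 opposite. The 4 spinal arrays of day 7 carry titles of another letter series than all other arrays, so at day 7 that series and tissue cannot be told apart. Across genes, which are not independent replicates, the control differences correlated with those at days 1, 3 and 7 at r = 0.748, 0.778 and 0.652.

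Large differences in regional genes were called after injury too. Hoxc8 differed by 4.85, 5.89 and 5.65 at days 1, 3 and 7, against 5.79 in controls, and Slc6a5 by 6.04, 4.74 and 4.81, against 6.25. Slc17a7 stood at -7.25, -6.35 and -7.93, against -6.12. Other regional differences were smaller after injury, such as Glra1 at 3.94, 2.61 and 3.13, against 6.54, and Ebf3 at 2.60, 2.01 and 1.78, against 5.17. The Hox list had medians of 1.06, 1.03 and 0.48, against 1.35, and the glycine list 0.33, 0.009 and -0.79, against 0.46. Forebrain factors had medians of -0.84, -1.13 and -0.81, against -1.12. Myelin proteins had medians of 0.76, 0.82 and 0.94, against 1.98 in controls, and astrocyte genes 0.32, -0.085 and 0.046, against 0.64. The difference in Gfap at day 1 minus that in controls was -2.55 ± 0.37 (adjusted p = 3.9e-05), in Mbp -0.86 ± 0.16 and in Mog, a surface protein of myelin, -1.76 ± 0.33. All control arrays carry lower running numbers in their titles than the day 1 arrays. At day 1, unlike in controls, the spinal arrays carry lower numbers than the cerebral ones. If the numbers mark an order of processing, that order and the change from controls cannot be told apart, here and below.

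For the immediate early genes, the median log2 difference was -0.004 at day 1, -1.02 at day 3 and -0.53 at day 7, against -1.74 in controls, and 6 were higher and 7 lower at day 1. Egr1 stood at -0.14 at day 1 (adjusted p = 0.746), and the change of its difference from controls was 3.26 ± 0.42 (adjusted p = 1.4e-05). Junb, Fos and Egr2 were higher in the spinal cord at day 1, by 1.69, 1.48 and 1.80, and their differences had changed by 3.52 ± 0.32, 2.10 ± 0.23 and 3.44 ± 0.61 (adjusted p = 7.11e-08, 1.17e-06 and 0.000396). Homer1 stood at -2.46, a change of 0.61 ± 0.22 that did not pass the test (adjusted p = 0.0704). Muscle genes had a median of 0.31 at day 1, against 1.60 in controls.

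**Figure D5:**
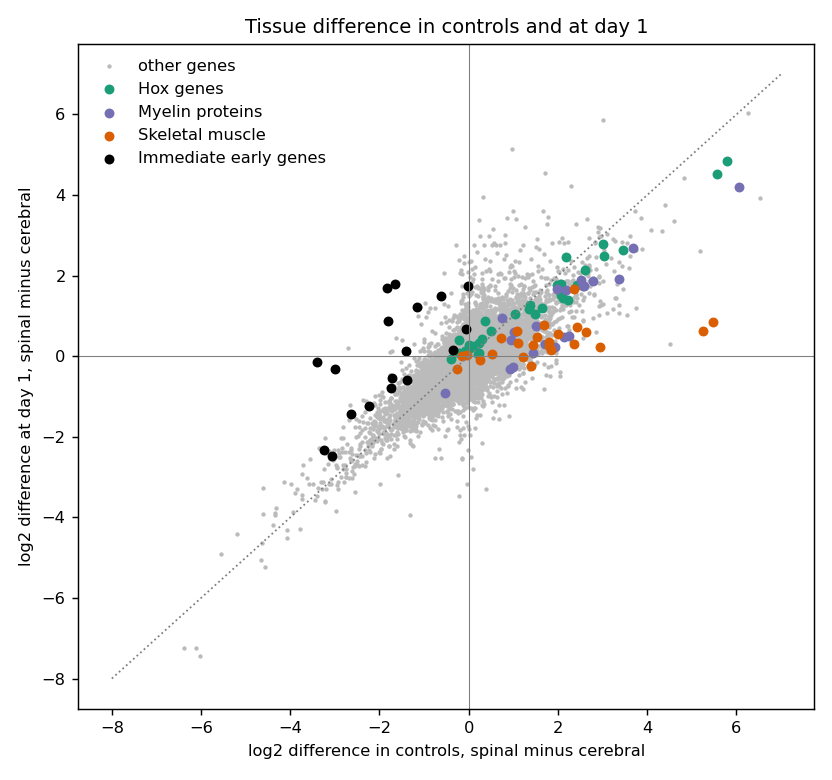
Log2 difference, spinal minus cerebral, at day 1 (vertical axis) against that in controls (horizontal axis) for 19505 genes, with Hox genes, myelin proteins, skeletal muscle and immediate early genes in colour and equality dotted. Hox genes and myelin proteins lie near or below the dotted line on the right, muscle genes mostly below it, and immediate early genes above it on the left.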

How the data were processed

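Gene expression was measured on 32 single-channel arrays. The deposited log2 values were normalised by the authors and centred per probe, as tested on the values: controls and day 1 share a centre, and day 3 and day 7 have their own. The log base is not stated in the sources used here and was taken as 2. The software, summarisation and build were not given in the sources used here. No detection flag came with the values, so no gene could be called absent. Of 22206 probes, 19572 carried 1 gene symbol, and 2634 with none were left out. Probes of a gene were averaged, giving 19505 genes (55 with several probes).

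Groups came from the sample labels. A mean was fitted to each of 8 groups over all 32 arrays with limma 3.58.1 in R 4.3.3, and spinal minus cerebral differences were tested with empirical Bayes and Benjamini-Hochberg adjustment over all genes, in controls and within each day, and between day 1 and controls. The fit was also run on simulated data with independent noise and few changed genes. That setting does not cover shifts shared by many genes of an array, or as many differences as were called here. The members and lists were chosen with earlier results of these data known. Genes named were the 15 largest and 15 smallest differences with adjusted p under 0.05 and no overlap between groups, predicted genes passed over, members of the lists, and microRNA genes with adjusted p under 0.05. Alternatives covered scaling, quantile normalization, array weights, filters, arrays left out and a test against a 2-fold change. Tables and figures used Python 3.11.15 with pandas 2.3.3, numpy 2.4.6 and matplotlib 3.10.9. The number of arrays, 4 per group, limits the precision, and the median SD within a group was 0.184 for spinal controls and 0.159 for cerebral controls.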

Additional observations from a re-analysis of the deposited data

Results flagged for a closer look

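In 17 of 626 gene or list values tested within a group of 4 arrays, 1 array stood apart from the other 3 by more than the 95% critical value of Dixon's test, and chance gives about 1 in 20. In the spinal controls, Hoxc10 read 1.72 in array 1, with the nearest other at 1.06, and Stx1a read -0.75 in array 1, against -1.10. Junb read -1.11 in array 2, with the nearest at -1.67. The list means that stood apart there were 0.47 for endothelial genes and -0.64 for striatal genes in array 2, 1.32 for myelin lipid enzymes in array 3 and 0.046 for respiratory chain subunits in array 4. In the cerebral controls, Egr2 read -0.35 in array 1, with the nearest other at 1.71. Array 2 read -0.97 for Pax8, -0.11 for Slc1a2 and -1.06 for Fads2b. Epha7 read 1.47 in array 3 and Hoxb1 -0.11 in array 4. The cerebral list means that stood apart were 0.40 for immediate early genes and -0.17 for glycolytic genes in array 1, 0.15 for dopamine, serotonin and adrenergic receptors in array 3 and -0.14 for red blood cell genes in array 4.

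Of the 30 genes with the largest differences, 13 had a tissue difference at day 1 that differed from that in controls by a test of the change itself (limma, adjusted p under 0.05). These genes were picked by their control values, which also enter this test, so a change toward 0 was favoured in advance. No share over all genes was taken beside it. The muscle genes Myh4, Atp2a1 and Myh8 were highest in spinal controls 1 and 2. The change was negative for genes higher in the spinal controls, at -4.61 for Myh4, -4.62 for Atp2a1, -4.21 for Myh8, -2.60 for Glra1, -2.57 for Ebf3, -1.85 for Klk6, -1.23 for S100b and -1.04 for Hoxb9. Among genes lower in the spinal controls it was 1.34 for Nrgn, 0.78 for Itpka and 0.68 for Tbr1, and -1.41 for Ttr and -0.85 for Ddn.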

How the results depend on the processing

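The control comparison called 6778 genes, and 677 (316 higher, 361 lower) when tested against a 2-fold change, a stricter question. With spinal control 3 as the only spinal array, assumed to vary like the other groups, it called 4023 (2074 higher, 1949 lower). Leaving out each control array gave 6023 to 6467 genes, 3001 to 3200 higher and 3022 to 3267 lower. Within the days the ranges were 5907 to 6966 (2703 to 3367 higher, 3204 to 3599 lower) at day 1, 6536 to 7331 (3295 to 3652; 3241 to 3679) at day 3 and 8542 to 8665 (4174 to 4230; 4368 to 4453) at day 7. Scn10a turned to -0.065 with spinal controls 1 and 3 only and to -0.084 with spinal control 3 only, and Klk8 to 0.057 with spinal control 3 only, and the cause was not tested. Over all alternatives, named genes were counted as unchanged in 5598 cases, lost the call in 264 and gained it in 19. The unchanged cases include genes not called in the main fit whose direction turned, whether or not they were then called. List medians stayed within their spread in 1238 cases and moved beyond it in 73. No paired analysis was possible because the labels carry no replicate numbers. With centred values, signal over background is unknown, and a low signal cannot be told from none.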

Other observations

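Some lists not described above differed as follows between spinal and cerebral controls. Of 20 clustered protocadherins, surface proteins by which neurites recognise each other, 11 were lower and 0 higher in limma, also 0 higher at an unadjusted p under 0.05, with a median log2 difference of -0.37. Of 24 genes of ependymal cells, which line the ventricles and the central canal, 4 were higher and 1 lower. Thalamic genes were lower in 6 of 14 and higher in 3, with cerebral means of 0.49, -0.059, -0.77 and -0.29 in cerebral controls 1 to 4. With cerebral controls 3 and 4 only, 3 thalamic genes were lower and 4 higher. Of 14 cerebellar genes, 5 were lower and 2 higher, or 3 and 3 with cerebral controls 3 and 4 only.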
